A study of Mus musculus with 8 samples.

Results

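Phosphodiesterase 6 (PDE6) is the enzyme that photoreceptors use to turn light into an electrical signal. Light-activated transducin releases its inhibitory subunits, the catalytic subunits break down cyclic GMP (cGMP), and cGMP-gated channels close. Rods and cones use different genes for it, and loss of the rod enzyme is a classic cause of retinal degeneration in mice and people. The genes described here are the 6 whose symbol names a PDE6 subunit, out of 54532 genes in the deposited tables: Pde6a and Pde6b, the rod catalytic subunits; Pde6g, the rod inhibitory subunit; Pde6c, the cone catalytic subunit; Pde6h, the cone inhibitory subunit; and Pde6d, a prenyl-binding protein that carries lipid-modified proteins to the outer segment and is not restricted to photoreceptors. They were chosen by gene symbol, each symbol had 1 row, and all 6 passed the filter on low counts.

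RNA sequencing was done on retinas of rd10 mice, which carry a missense allele of Pde6b, so every library compared here comes from the same degenerating background. The labels give 4 libraries named sIVs (numbers 2 to 5), which the title of the series spells out as small intracellular vesicles, and 4 named PBS (numbers 1 to 4). The sources used here do not give age, sex, dose, route or interval, nor whether each library is 1 animal. The p-values therefore cover the spread among these 8 libraries only, and that spread may be technical. Total counts lay between 15039385 and 16989737 for sIVs, and between 14640235 and 15948291 for PBS; the PDE6 genes drew between 971 and 30994 counts per library, a counting error between 3.21% and 0.568%.

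The allele that all 8 libraries share lies in the coding sequence of Pde6b. The 63 bases of reference sequence around codon 560, the arginine codon that the rd10 allele is known to change, are shown because they mark the lesion of the strain. They come from GENCODE M21 transcript Pde6b-201 and lie in exon 13 of 22, at chr5:108426487-108426549 on the plus strand (GRCm38), with the codon in capitals.
Pde6b codon 560: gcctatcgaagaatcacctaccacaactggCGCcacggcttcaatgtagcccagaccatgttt
The deposited values are counts per gene, so they show how much Pde6b RNA was present but not which allele it carried.

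The 250 bases before the RefSeq start (GRCm38.p6) are shown for the 3 of 6 members matched, 1 rod gene, 1 cone gene and Pde6d, because the results set these classes beside each other. Pde6a, Pde6g and Pde6c are named only. Capitals mark TAATC, the core bound by the photoreceptor factors CRX and OTX2, and TGCTGA, a half-site for the rod factor NRL, searched on both strands.
Pde6b, chr5:108388123-108388372, plus strand: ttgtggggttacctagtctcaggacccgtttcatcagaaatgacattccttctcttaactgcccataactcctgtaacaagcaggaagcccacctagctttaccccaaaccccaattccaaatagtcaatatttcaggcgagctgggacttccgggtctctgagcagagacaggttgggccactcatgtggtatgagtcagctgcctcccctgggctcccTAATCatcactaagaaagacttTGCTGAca
Pde6h, chr6:136954273-136954522, plus strand: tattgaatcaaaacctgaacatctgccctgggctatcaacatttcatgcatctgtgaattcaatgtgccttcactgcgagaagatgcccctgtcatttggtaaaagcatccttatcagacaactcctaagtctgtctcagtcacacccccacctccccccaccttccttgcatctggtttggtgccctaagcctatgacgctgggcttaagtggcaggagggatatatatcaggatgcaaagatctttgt
Pde6d, chr1:86582786-86583035, minus strand: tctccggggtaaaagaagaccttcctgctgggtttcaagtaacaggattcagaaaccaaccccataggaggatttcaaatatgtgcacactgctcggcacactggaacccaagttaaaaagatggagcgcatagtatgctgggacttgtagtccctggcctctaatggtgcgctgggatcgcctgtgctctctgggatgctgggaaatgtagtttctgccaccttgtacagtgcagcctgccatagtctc
TAATC began 30 bases and TGCTGA 8 bases before the start of Pde6b, and neither stood in the windows of Pde6h or Pde6d. Of all 32851 RefSeq windows of this length, 19.8% held TAATC and 16.1% held TGCTGA. The E-box CANNTG, which many factors can bind, matched at 2 places in the window of Pde6b, at 4 in that of Pde6h and at 0 in that of Pde6d, and 66.2% of windows held it. These matches describe letters only.

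No PDE6 gene passed the test between sIVs and PBS: edgeR called 0 of 6, and 0.0% of all genes tested. The sIVs libraries differed widely among themselves. Pde6a, Pde6b and Pde6g were at 0.235 to 0.311 times the PBS mean in sIVs libraries 3 and 4, and at 0.999 to 1.12 times in sIVs library 2. Pde6h and Pde6d were at 0.482 to 0.644 times the PBS mean in libraries 3 and 4, while Pde6c was at 1.44 and 1.42 times.

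The rod catalytic subunits form the 2 cGMP-cleaving arms of the rod enzyme. Pde6a (ENSMUSG00000024575, chromosome 18, 61220482 to 61289924, GRCm38) stood at 1933, 602, 573 and 1625 CPM (counts scaled to a common library total) across sIVs 2, 3, 4 and 5, against 1995, 1868, 1888.5 and 1990.0 CPM in PBS 1 to 4. Library 2 lay inside the PBS range and the other 3 sIVs libraries below it. Pde6b (ENSMUSG00000029491, chromosome 5, 108388391 to 108432397) stood at 1843, 407, 387.3 and 1561 CPM in sIVs, against 1633, 1566, 1649 and 1748 CPM in PBS. Here library 2 was the highest of all 8 and library 5 just under the lowest PBS library. The log2 fold changes were -0.71 ± 0.37 for Pde6a and -0.65 ± 0.47 for Pde6b (SE, n = 4 each, edgeR quasi-likelihood adjusted p = 0.391 and 0.533).

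Pde6g (ENSMUSG00000025386, chromosome 11, 120447605 to 120453500) encodes the small inhibitory subunit that transducin pulls away from the catalytic core. It stood at 1204.5, 282, 278 and 915 CPM across sIVs 2 to 5, against 1135, 992, 1226 and 1328.5 CPM in PBS. As for Pde6a, sIVs library 2 overlapped PBS and the other 3 did not (log2 fold change -0.81 ± 0.44 SE, edgeR adjusted p = 0.415). Together the 3 rod genes took 0.486%, 0.138%, 0.132% and 0.405% of all counts across sIVs 2 to 5, against 0.464%, 0.433%, 0.466% and 0.486% in PBS 1 to 4. In bulk retina, fewer rods and less RNA per rod cannot be told apart.

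The 2 cone genes differed. Pde6c (ENSMUSG00000024992, chromosome 19, 38132781 to 38183958), the cone catalytic subunit, stood at 117, 196, 193 and 85.0 CPM across sIVs 2 to 5, against 113.5, 126, 129 and 175 CPM in PBS. Libraries 3 and 4 were above every PBS library, library 5 below every one and library 2 among them (log2 fold change 0.12 ± 0.25 SE, edgeR adjusted p = 0.856). Without sIVs libraries 3 and 4 its log2 fold change was -0.43 (edgeR adjusted p = 0.284). Pde6h (ENSMUSG00000064330, chromosome 6, 136923832 to 136968865), the cone inhibitory subunit, stood at 130, 74.6, 77.8 and 121 CPM across sIVs 2 to 5, against 147, 128, 155 and 189.5 CPM in PBS. Of these, library 2 was above the lowest PBS library and the other 3 were below all of them. The log2 fold change of Pde6h was -0.62 ± 0.20 (SE, edgeR adjusted p = 0.212; without sIVs library 2, -0.77 and adjusted p = 0.043, where 7.39% of all genes passed), and it was the only member with an unadjusted edgeR p under 0.05. The row of Pde6h overlaps Arhgdib on the opposite strand, a gene with between 3.57% and 16.2% of the counts of Pde6h. The libraries were strand-marked, but no source used here gives the strand setting of the counting, so the share of reads that could belong to either gene is unknown.

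Pde6d (ENSMUSG00000026239, chromosome 1, 86542994 to 86582629) stood at 98.7, 60.3, 62.5 and 93.4 CPM across sIVs 2 to 5, against 102, 86.0, 98.2 and 102.5 CPM in PBS. Libraries 3 and 4 were below PBS, and libraries 2 and 5 overlapped it (log2 fold change -0.30 ± 0.16 SE, edgeR adjusted p = 0.404). The plot of CPM by library shows the same 2 libraries at the bottom in 5 genes and at the top in Pde6c.

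**Figure D1:**
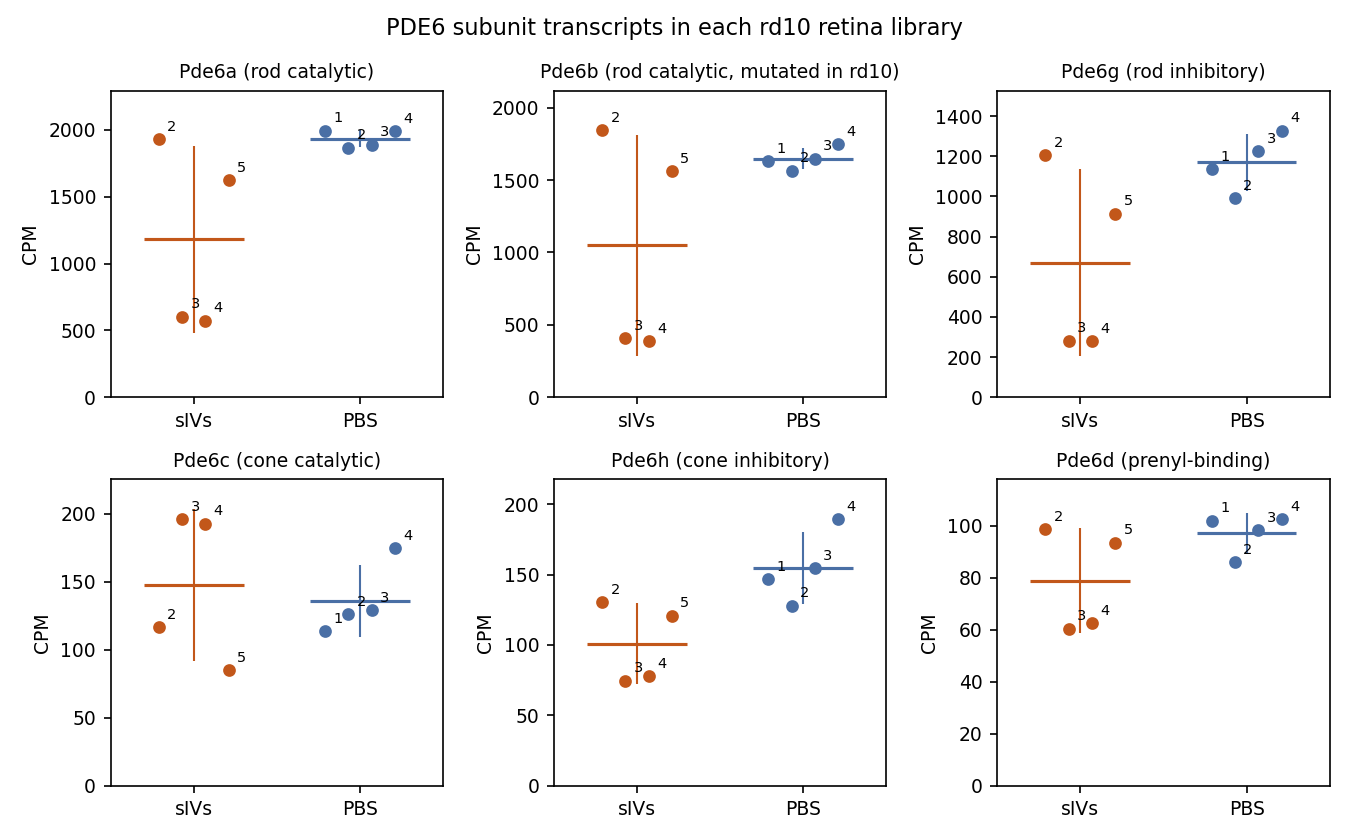
CPM, counts scaled to a common library total (vertical axis, from 0) of the 6 PDE6 genes in each library, sIVs left and PBS right, with library numbers beside the points, group means as horizontal bars and SD as vertical lines (n = 4 each). sIVs libraries 3 and 4 are lowest of all 8 in 5 panels and highest in the panel of Pde6c, at 196 and 193 CPM.

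Across all 17725 genes tested, edgeR called 0 at an adjusted p under 0.05, or 0.0%, with 2702 at an unadjusted p under 0.05 (15.2%). DESeq2 called 571 genes (3.22%) and 0 of the 6 members, its smallest adjusted p among them being 0.0701 for Pde6h. Sample-weighted limma-voom, which gives libraries unequal weights, called 4973 genes (28.1%) and 5 of the 6 members as lower, Pde6c being the exception. For each of the 5 its estimate lay nearer to sIVs libraries 3 and 4 than to libraries 2 and 5. For Pde6g it was -1.777, against -1.099 in limma-voom without weights. The log2 differences of Pde6g from the PBS mean were 0.05, -2.043, -2.066 and -0.347 across sIVs 2 to 5. The weights themselves are not reported here. In 4 members, Pde6a, Pde6b, Pde6g and Pde6h, at least 3 of 4 sIVs libraries were below every PBS library, against 14.0% of all tested genes. In all members but Pde6c at least 2 sIVs libraries were below every PBS library, against 37.9% of tested genes. The 2 sIVs libraries of Pde6c above every PBS library are a pattern that 36.2% of tested genes shared.

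Levels between genes can be compared per length, in the deposited FPKM (fragments scaled to gene length and library total). In PBS the order was Pde6g at 503 ± 60.4, Pde6a at 427 ± 14.1, Pde6b at 327 ± 14.0, Pde6c at 45.6 ± 8.81, Pde6d at 44.4 ± 3.45 and Pde6h at 19.6 ± 3.21 FPKM (SD, n = 4). In sIVs the order of the means was the same, at 289 ± 201, 261 ± 155, 209 ± 152, 49.6 ± 18.6, 36.1 ± 9.30 and 12.8 ± 3.68 FPKM (SD, n = 4). The ranges of Pde6g and Pde6a, and of Pde6c and Pde6d, overlapped in both groups, and those of Pde6a and Pde6b overlapped in sIVs but not in PBS. By FPKM rank among all genes, Pde6b ranked 43, 342, 395 and 55 across sIVs 2 to 5, against 51, 51, 48 and 49 in PBS 1 to 4. Pde6c ranked 1079, 479, 537 and 1777 in sIVs, against 1156, 942, 937 and 658 in PBS.

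This order depends on the gene length used. The deposited length of Pde6b is 5026 bases and that of its only protein-coding GENCODE M21 transcript 2799, so Pde6b would stand at 374.5 ± 272.6 FPKM in sIVs and 587 ± 25.1 in PBS by that transcript. Pde6a would then stand at 257.5 ± 152.7 FPKM in sIVs and 420.3 ± 13.9 in PBS by Pde6a-201, below Pde6b rather than above it. For Pde6h the deposited length is 7846 bases against 5940 for Pde6h-202, the transcript that begins at the RefSeq start, and 392 for Pde6h-204, which begins upstream. Its place relative to the other genes therefore rests on the transcript taken. A change of length cancels in every comparison between libraries.

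Ratios of 2 genes within a library are free of library scaling, and they show whether the subunits kept their proportions. Pde6b stood at 0.858, 0.608, 0.608 and 0.864 FPKM per FPKM of Pde6a across sIVs 2 to 5, against 0.736, 0.754, 0.786 and 0.790 in PBS 1 to 4. The 4 sIVs values lay outside the PBS range, 2 above it and 2 below it, so the group means hardly differed (log2 difference -0.08, exact two-sided permutation p = 0.543). The ratio of Pde6g to Pde6b was 1.417, 1.504, 1.555 and 1.271 in sIVs and 1.508, 1.374, 1.612 and 1.649 in PBS, and its groups overlapped (log2 difference -0.10, exact permutation p = 0.286).

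The cone pair split in the same 2 libraries. Pde6h stood at 0.424, 0.145, 0.154 and 0.540 FPKM per FPKM of Pde6c across sIVs 2 to 5, against 0.490, 0.386, 0.454 and 0.412 in PBS. Libraries 3 and 4 were below all PBS values, library 5 above all and library 2 among them (log2 difference -0.70, exact permutation p = 0.371). Pde6c stood at 0.107, 0.816, 0.842 and 0.0925 FPKM per FPKM of Pde6b in sIVs, against 0.118, 0.137, 0.133 and 0.169 in PBS (log2 difference 1.06, exact permutation p = 0.429). Put as a share of the summed FPKM of the 3 catalytic genes, Pde6c made up 4.71%, 23.6%, 24.2% and 4.10% across sIVs 2 to 5, against 4.75%, 5.53%, 5.51% and 6.95% in PBS. Libraries 3 and 4 stood apart from the other 6, whose highest value was in PBS library 4. Pde6d over Pde6b was 0.124, 0.343, 0.373 and 0.138 in sIVs, against 0.144, 0.127, 0.138 and 0.136 in PBS (log2 difference 0.67, exact permutation p = 0.343).

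The photoreceptor type markers place these values. Rod markers (10 genes, among them the rod transducin gene Gnat1 and the rod channel gene Cnga1) had median log2 differences from the PBS mean of 0.08, -1.83, -1.91 and -0.27 across sIVs 2 to 5, against 0.01, -0.14, 0.05 and 0.08 in PBS 1 to 4. Relative to the mean of those markers, Pde6a was at log2 0.32, 0.51, 0.52 and 0.38 in sIVs, against 0.43, 0.45, 0.30 and 0.39 in PBS (log2 difference 0.04, exact permutation p = 0.486). Pde6b was at 0.10, -0.20, -0.20 and 0.17 in sIVs, against -0.01, 0.04, -0.05 and 0.05 in PBS (log2 difference -0.04, exact permutation p = 0.657). Pde6g was at 0.61, 0.39, 0.44 and 0.51 in sIVs, against 0.58, 0.50, 0.64 and 0.78 in PBS (log2 difference -0.14, exact permutation p = 0.143). Pde6a was thus the least low of the 3 in libraries 3 and 4.

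Cone markers (9 genes) had medians of -0.17, -0.84, -0.99 and -0.57 across sIVs 2 to 5, against -0.18, -0.16, -0.04 and 0.36 in PBS 1 to 4. Pde6h was also low in libraries 3, 4 and 5. Relative to the mean of the cone markers it was at log2 -1.33, -1.10, -1.11 and -1.05 in sIVs, against -1.18, -1.38, -1.25 and -1.28 in PBS (log2 difference 0.13, exact permutation p = 0.143). By this ratio libraries 3, 4 and 5 were above every PBS library and library 2 among them. Pde6c did not follow the cone markers in libraries 3 and 4: relative to their mean it was at -0.09, 1.69, 1.59 and -0.16 in sIVs, against -0.15, -0.002, -0.11 and -0.003 in PBS (log2 difference 0.82, exact permutation p = 0.343). Arr3, the cone arrestin gene, was at 221, 76.4, 68.1 and 124 CPM in sIVs, against 196, 208, 231 and 453 CPM in PBS (log2 fold change -1.15, edgeR adjusted p = 0.242). Without sIVs library 2 its edgeR adjusted p was 0.0241, where 7.39% of all genes passed. Without PBS library 4 its log2 fold change was -0.79 (edgeR adjusted p = 0.464). Not every cone marker was low in libraries 3 and 4: Gnb3 was at 835 and 828 CPM there, against 671 to 803 CPM in PBS, and Cnga3, a cone channel subunit gene, at 18.6 and 18.2 CPM, against 17.1 to 25.3 CPM in PBS. Both were named after their values were seen. With 4 libraries a side the smallest p an exact permutation can give is 0.0286, and adjusted over the 10 ratios computed every p came to between 0.603 and 0.657.

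**Figure D2:**
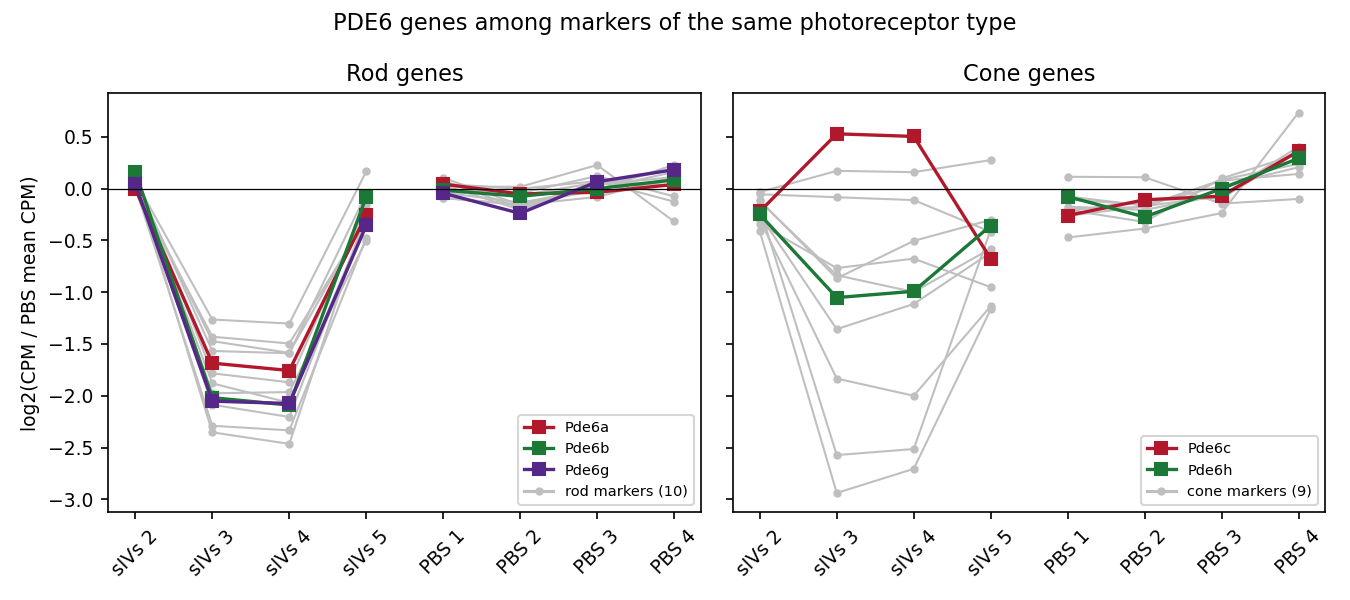
Log2 of CPM over the PBS mean CPM (vertical axis) in each library (horizontal axis) for rod PDE6 genes with 10 rod markers (left) and cone PDE6 genes with 9 cone markers (right, markers in grey). In sIVs libraries 3 and 4 the rod PDE6 genes run inside the band of rod markers, and Pde6c lies above all cone markers in sIVs libraries 3 and 4.

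**Figure D3:**
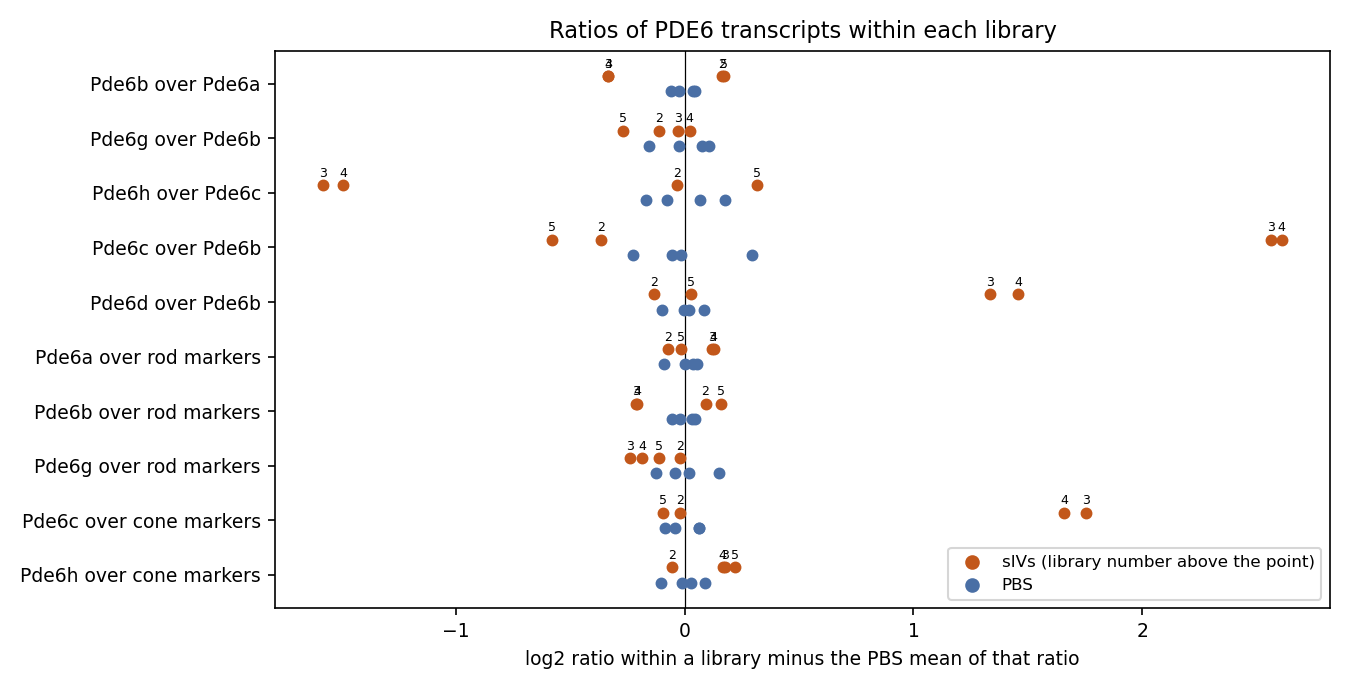
Log2 ratio within each library minus the PBS mean of that ratio (horizontal axis) for the 10 ratios tested, sIVs above PBS in each row, with sIVs library numbers over the points. Pde6c over Pde6b puts sIVs libraries 3 and 4 at 0.816 and 0.842 on the linear scale, far from PBS, while Pde6g over Pde6b overlaps PBS in 3 of 4 sIVs libraries.

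Summed markers of reactive glia, microglia and macrophages, bipolar cells and endothelium stood above PBS in sIVs libraries 3 and 4. Those of Müller glia, amacrine cells, ganglion cells and pigment epithelium did not, and those of horizontal cells did in library 4 only. Summed over the 7 genes of each list, reactive glia markers stood at 957, 2196, 2322 and 1494 CPM across sIVs 2 to 5, against 417 to 909 CPM in PBS, while Müller glia markers stood at 4264.5, 4805 and 5265 CPM in sIVs libraries 2, 3 and 4 and at 2980 CPM in library 5, against 4723 to 6303.5 CPM in PBS. The Müller glia sum thus lay inside the PBS range in libraries 3 and 4 and below it in libraries 2 and 5. Single genes of that list differed. Rlbp1, Slc1a3, Kcnj10, Aqp4 and Dkk3 were above every PBS library in libraries 3 and 4, and Apoe was inside the PBS range. Glul, the most abundant of the list in PBS, was at 986 and 1093 CPM there, against 1923 to 2719 CPM in PBS. The median log2 difference of the list from the PBS mean was 0.44 and 0.71 in libraries 3 and 4. The 10 microglia and macrophage markers summed to 187, 405, 501.5 and 149 CPM in sIVs, against 133 to 239 CPM in PBS. Bipolar cell markers summed to 1581, 1988, 1971 and 1457 CPM in sIVs and to between 1501 and 1725 CPM in PBS, and endothelial markers to 278.5, 572, 577 and 254 CPM in sIVs and to between 288 and 334 CPM in PBS. Most of the endothelial sum was Kdr, at 514 and 506 CPM in libraries 3 and 4, against 240 to 278 CPM in PBS. Cldn5 was above every PBS library in both libraries, and Pecam1 and Tek in library 4 but not in library 3. Cdh5 lay inside the PBS range in both. Amacrine markers summed to 792 and 813 CPM in libraries 3 and 4, against 784 to 887 CPM in PBS. Ganglion cell markers summed to 888 and 960 CPM there, against 953 to 1223 CPM in PBS. Pigment epithelium markers summed to 53.1 and 86.8 CPM there, against 39.9 to 171.5 CPM in PBS. Horizontal cell markers summed to 121 and 139 CPM there, against 111 to 126 CPM in PBS. The part of these cell types in the PDE6 values was not tested. All 10 rod markers and all 9 cone markers, which define the tissue as retina here, passed the filter on low counts, as did every marker of the other lists.

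The genes around PDE6 in its pathway were taken from lists, and edgeR with all 8 libraries called 0 of them. Other settings called some of the genes named here. DESeq2 called Pde3b as higher in sIVs (adjusted p = 0.00183), and Cngb3, Rpgr and Gnat2 as lower (adjusted p = 0.0227, 0.0268 and 0.029). Without sIVs library 2, edgeR called Pde3b as higher (adjusted p = 0.0129), and Rpgr, Gnat2, Cngb3, Gucy2f and Pde10a as lower (adjusted p between 0.0142 and 0.0381). Sample-weighted limma-voom called Pde3b as higher (adjusted p = 0.00163). It called Gnat2, Rgs9, Gucy2e, Gucy2f, Guca1b, Cnga1, Cngb3, Slc24a1, Rpgr, Arl3, Aipl1 and Pde10a as lower (adjusted p between 0.00163 and 0.00796). These stand beside the 3.22%, 7.39% and 28.1% of all genes called in those settings. Of the 9 genes of transducin and its off switch, 8 had a negative log2 fold change and the median was -0.74, beside -0.005 over all tested genes. Gnat2, the cone transducin alpha subunit, stood at 99.2 ± 34.0 CPM in sIVs and 170 ± 25.0 CPM in PBS (SD, n = 4 each; edgeR adjusted p = 0.185, log2 fold change -0.77 ± 0.22 SE). Rgs9, which speeds transducin shut-off, was at 370.5 ± 156 CPM in sIVs and 579 ± 64.3 CPM in PBS (edgeR adjusted p = 0.298). The exception was Gnb3, a beta subunit gene used by cones and also by ON bipolar cells, at 821 ± 71.6 CPM in sIVs and 741 ± 69.9 CPM in PBS (edgeR adjusted p = 0.517); it was named after its values were seen.

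cGMP is made by guanylate cyclases, and all 4 genes of that list had a negative log2 fold change (median -0.67). Gucy2e, the main photoreceptor cyclase, stood at 628, 238, 211 and 549.5 CPM across sIVs 2 to 5, against 660.2, 642, 662 and 652 CPM in PBS (log2 fold change -0.69 ± 0.32 SE, edgeR adjusted p = 0.347). Gucy2f, the second cyclase, stood at 174, 48.4, 47.0 and 121.5 CPM in sIVs, against 188, 187.5, 186 and 175.5 CPM in PBS (edgeR adjusted p = 0.298). For both genes all 4 sIVs values lay under the lowest PBS value, which held for 3.36% of tested genes. The transcripts of cGMP synthesis and of cGMP breakdown by rod PDE6 were therefore low in the same 2 libraries.

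Of the 8 channel, exchanger and kinase genes that respond to cGMP or work beside its channel, 6 had a negative log2 fold change (median -0.41). Cnga1, the rod channel subunit, stood at 656, 175, 165 and 539 CPM across sIVs 2 to 5, against 622, 602, 633.5 and 552 CPM in PBS (log2 fold change -0.65 ± 0.41 SE, edgeR adjusted p = 0.476). Cngb3, a cone channel subunit, averaged 19.2 ± 3.51 CPM in sIVs and 30.4 ± 6.76 CPM in PBS (SD, n = 4 each, edgeR adjusted p = 0.173). Slc24a2, an exchanger gene, averaged 116 ± 8.15 CPM in sIVs and 131 ± 6.02 CPM in PBS (edgeR adjusted p = 0.304). Among sIVs libraries it was highest in 3 and 4, at 125 and 120 CPM. The cGMP-dependent kinase genes Prkg1 and Prkg2 were the 2 with a positive log2 fold change.

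PDE6 has to be folded, prenylated and carried to the outer segment. Of its 12 genes 11 had a negative log2 fold change, with Arl2 the exception, and the median was -0.12. Aipl1, the chaperone that photoreceptors need to fold PDE6, stood at 943, 417, 421 and 1089 CPM across sIVs 2 to 5, against 934, 860.5, 851 and 802 CPM in PBS (log2 fold change -0.26 ± 0.30 SE, edgeR adjusted p = 0.705). Libraries 2 and 5 were thus above every PBS library and libraries 3 and 4 below. Rpgr, a ciliary gene whose protein can bind that of Pde6d, was at 43.4 ± 5.83 CPM in sIVs and 58.6 ± 4.98 CPM in PBS (log2 fold change -0.43 ± 0.10 SE, edgeR adjusted p = 0.167). Arl3, the small GTPase that unloads cargo from the Pde6d protein, was at 143 ± 46.7 CPM in sIVs and 190 ± 17.2 CPM in PBS (edgeR adjusted p = 0.378). Fnta, which encodes a subunit of farnesyltransferase, stood at 65.6 ± 6.35 CPM in sIVs and 65.6 ± 2.51 CPM in PBS. It counts among the 11 negative genes by sign only, at a fold of 0.9998. Fnta was named after its values were seen.

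The other phosphodiesterase families went both ways. Of 18 genes, 17 passed the filter on low counts, with a median log2 fold change of -0.05, 11 negative and 6 positive. Summed, these genes stood at 804.5, 808, 799 and 770.3 CPM across sIVs 2 to 5, against 782, 829, 810 and 825 CPM in PBS, so the summed level in libraries 3 and 4 lay inside the PBS range. Pde3b, which cleaves cAMP, stood at 19.0, 23.3, 24.3 and 20.8 CPM in sIVs, against 14.55, 15.71, 15.69 and 13.3 CPM in PBS, and the groups did not overlap (log2 fold change 0.56 ± 0.11 SE, edgeR adjusted p = 0.148). All 4 sIVs libraries were above every PBS library in 4.42% of tested genes. Some genes were low in libraries 3 and 4, as rod PDE6 genes were; those given here besides Pde10a were named after their values were seen. Pde8b was at 58.1 and 58.9 CPM in sIVs libraries 3 and 4, against 82.3 to 98.6 CPM in PBS, and Pde8a at 26.4 and 25.0 CPM, against 36.9 to 40.5 CPM. Pde10a was at 46.9 and 44.5 CPM in those 2 libraries and averaged 49.8 ± 5.80 CPM in sIVs and 57.7 ± 1.76 CPM in PBS (edgeR adjusted p = 0.288).

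**Figure D4:**
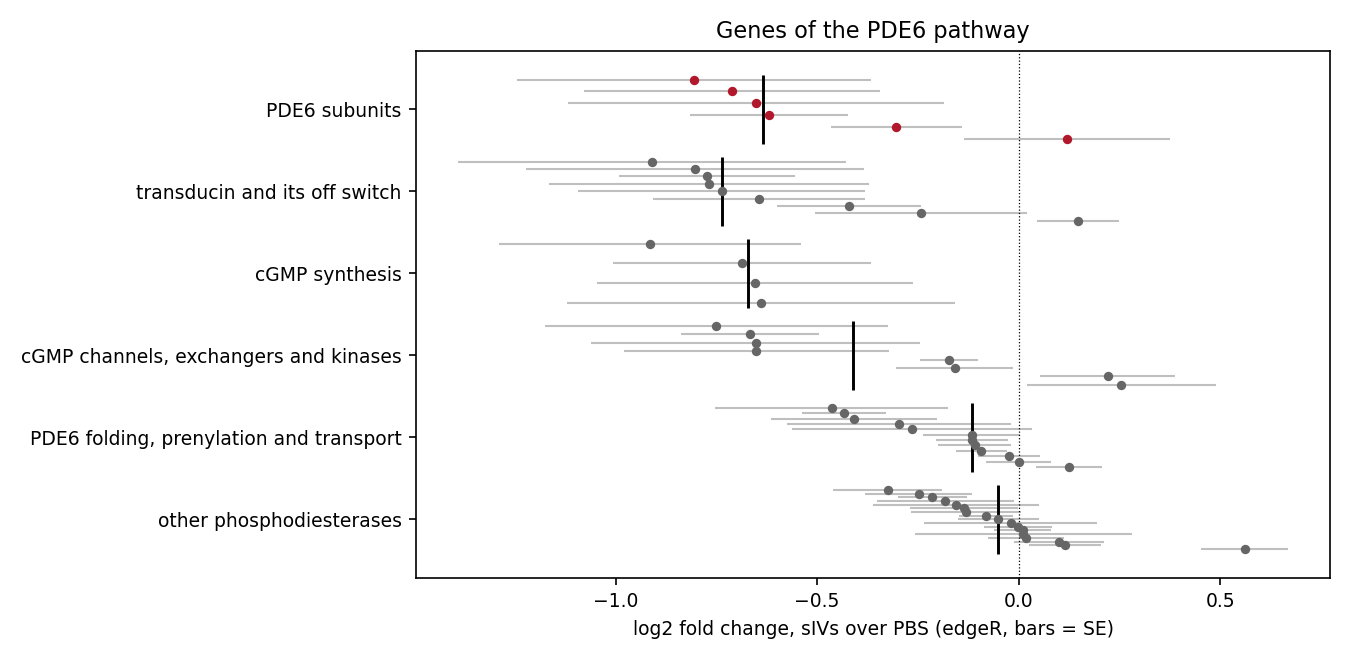
Log2 fold change of sIVs over PBS (horizontal axis, edgeR, bars are SE) for the PDE6 genes (red) and for each gene of the pathway lists (grey), with the median of each list as a vertical black line. Medians run from -0.74 for transducin genes to -0.05 for other phosphodiesterases.

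Likeness between genes was measured as the root mean square difference of log2 CPM, each gene taken relative to its PBS mean, over the 8 libraries and against 14508 other protein-coding genes. The profiles nearest to Pde6a were Abca4, the outer segment retinoid transporter, Wdr17 and Rdh12, a photoreceptor retinol dehydrogenase, at 0.06, 0.06 and 0.08 log2 units. For Pde6b they were Guca1b, a cyclase activator, the potassium channel gene Kcnj14 and Prph2, a disc rim protein gene, at 0.07, 0.08 and 0.09. For Pde6g they were Reep6, the rod transcription factor gene Nrl and the rod exchanger gene Slc24a1, at 0.07, 0.09 and 0.10. Pde6b and Pde6g were each the gene of rank 7 in likeness to the other, at 0.13 log2 units.

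No other PDE6 gene was near Pde6c in this measure: the nearest, Pde6d, was at 0.66 log2 units and rank 12723, Pde6h at 0.79 and rank 13542, and Pde6b at 1.32 and rank 14413. Its nearest profiles were Pla2g16, a phospholipase gene, Serpinb9, a protease inhibitor gene, and Dbp, a clock output gene, at 0.09, 0.13 and 0.14. Nearest to Pde6h were Faah, which encodes an enzyme that breaks down fatty acid amides, D1Ertd622e and Mtfr1, at 0.08, 0.12 and 0.12. Pde6d had the closest neighbours of the 6, Rmdn3, Chrac1 and Cst3, the cystatin C gene, at 0.05, 0.05 and 0.06 log2 units.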

How the data were processed

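Per the labels' protocols, poly(A) RNA from retina was made into strand-marked, paired-end libraries. The submitters' processing notes name mm10. No source used here gives the aligner, counter or strand setting. The authors' count table holds raw whole-number counts. The deposited FPKM values equal count per gene length and library total times 1 constant per library (0.930 to 1.03, tolerance 0.1%). Here edgeR 4.0.16 (R 4.3.3; filterByExpr, TMM, quasi-likelihood test, group only) tested 17725 genes, with Benjamini-Hochberg adjustment over all of them. CPM use TMM-scaled totals; standard errors come from the F statistic. Ratios were taken on log2(FPKM + 0.1) and tested by exact two-sided permutation over 70 relabellings. Groups and numbers follow the sample titles. The edgeR step was tested on simulated data. Every pair of libraries differed by more than sampling noise (lowest chi-square per gene 3.67, between sIVs library 2 and PBS library 1). For sIVs libraries 3 and 4 it was 4.69 with each other, and between 54.63 and 76.07 with any other library.

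The members, gene lists, tests and the alternative without sIVs libraries 3 and 4 were chosen with earlier results of these data known. Besides the PDE6 genes, the text names Arr3, Aipl1, Gucy2e, Gucy2f and Cnga1, the 2 genes of smallest p in each pathway list, and the 3 nearest profiles of each member. Another gene under that rule is not reported here. Alternatives were DESeq2 1.42.0, limma 3.58.1 (voom, sample weights, log2 FPKM), other scalings and filters, libraries left out and replicate blocks. The libraries' numbers did not pair them: correlations of deviations ran from -0.07 to 0.10.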

Additional observations from a re-analysis of the deposited data

Results flagged for a closer look

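Among 96 groups of 4 libraries examined for a value far from the other 3, 3 stood out. Among independent groups chance alone would give about 1 in 20. These groups share the same 8 libraries, so their number cannot decide whether chance gave them. All 3 were PBS library 4. Its chi-square per gene was 8.91 to 13.1 against the other PBS libraries, and 3.85 to 4.42 among those. Arr3 was at 453 CPM in PBS library 4, with the other PBS libraries between 196 and 231 CPM. Gucy2f was at 175.5 CPM, against 186 to 188 CPM in the other PBS libraries. Rgs9 was at 483 CPM, against 599 to 617 CPM in the other PBS libraries. Pde6c and Pde6h were also highest among PBS in that library, at 175 and 189.5 CPM, without standing out by this measure. Without PBS library 4 the log2 fold change was 0.26 for Pde6c and -0.51 for Pde6h (edgeR adjusted p = 0.719 and 0.432).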

How the results depend on the processing

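No PDE6 gene passed under DESeq2, unweighted voom, the 3 other scalings, both filters, log2 FPKM or either replicate block. Weighted voom called Pde6a, Pde6b, Pde6g, Pde6h and Pde6d at log2 fold changes of -1.48, -1.74, -1.78, -0.88 and -0.57 (adjusted p from 0.0017 to 0.00393). Leaving out 1 library, the log2 fold change ran from -1.05 to -0.48 for Pde6a, -1.07 to -0.38 for Pde6b, -1.25 to -0.55 for Pde6g and -0.43 to -0.20 for Pde6d, and the rod marker median from -1.11 to -0.48; the lowest of each came without sIVs library 2 and the highest without sIVs library 3 (Pde6d) or 4 (the others). Pde6h ran from -0.77 to -0.50 and passed without sIVs library 2 (edgeR adjusted p = 0.043, where 7.39% of genes passed); Pde6c ran from -0.048 to 0.31, below 0 without sIVs library 3 or 4, and Pla2g16 from -0.089 to 0.30. The log2 ratio Pde6b over Pde6a ran from -0.17 to 0.002 and Pde6b over rod markers from -0.11 to 0.015. Numbers of genes called higher and lower were 465 and 106 by DESeq2, 2484 and 2489 by weighted voom, 145 and 7 with any gene of at least 1 count, 2 and 1 without sIVs libraries 3 and 4, and 0 to 870 and 0 to 461 with 1 library left out, above 0 only without sIVs library 2, against 0 and 0.

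Without sIVs libraries 3 and 4 the sign turned for Pde6b (0.044), Pde6c (-0.43), Aipl1 (0.24), Guca1b (0.073), Kcnj14 (0.041), Dbp (-0.30), Serpinb9 (-0.36) and Pla2g16 (-0.48), and for the log2 ratios Pde6b over Pde6a (0.17), Pde6a and Pde6b over rod markers (-0.044 and 0.125), Pde6c over Pde6b (-0.47), Pde6c over cone markers (-0.058), Pde6d over Pde6b (-0.055) and Pde6h over Pde6c (0.14). Pde6a was then at -0.12, Pde6g at -0.14, Pde6d at -0.02 and Pde6h at -0.30. List medians moved to -0.10 for rod markers, -0.09 for cGMP synthesis, 0.039 for folding and transport, -0.15 for channels, -0.34 for cone markers and -0.17 for transducin genes. The smallest permutation p there is 0.0667, so no ratio could pass. The replicate block by biosample number gave Pde6h -0.65 (edgeR adjusted p = 0.253), the block by title number -0.77 (0.377), and both called 0 genes. The cause of these moves was not tested. Counting error was at most 3.21% for a PDE6 gene in a library.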
